A study of Mus musculus with 13 samples.

Results

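The genes described here are the kallikreins, a family of secreted serine proteases, and the serpins and Kazal-type inhibitors, families of proteins that block serine proteases. Every gene of the deposited count table was taken whose symbol is Klk and a number, Serpin with a clade letter from a to i and a number, or Spink and a number. Each gene thus entered by its name and not by a measured value, but the set was chosen with earlier results of these data known. This gave 88 of the 25746 genes in the table: 13 kallikreins, 12 Kazal inhibitors, 24 clade A serpins, 28 clade B serpins and 11 serpins of clades C to I. Of these, 45 had enough counts to be tested among 16051 genes, namely 8 kallikreins, 3 Kazal inhibitors, 9 clade A, 18 clade B and 7 clade C to I serpins.

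In the epidermis, kallikreins are made by keratinocytes as inactive precursors and are released between the outermost cells. There Klk5 and Klk7 cut the proteins of the junctions that hold dead cells together, so that the surface can be shed. Spink5 encodes LEKTI, a chain of Kazal domains that binds these kallikreins, and its loss in human causes Netherton syndrome with a leaky skin barrier. A serpin traps its protease by a loop that is cut and then drags the enzyme into an inactive complex. Clade A and most clade C to I serpins are secreted, whereas clade B serpins stay mainly inside the cell and are abundant in stratified epithelia. Some serpins, such as Serpinb5 and the collagen chaperone Serpinh1, are not known to inhibit a protease.

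Bulk RNA was sequenced from interfollicular keratinocytes, sorted by flow cytometry from skin of C57/BL6 mice, all of which carried floxed alleles of Il12rb2, a subunit of the interleukin-12 receptor (Il12rb2fl/fl). Il12rb2-deleted mice had the genotype K14Cre/+ Il12rb2fl/fl, in which the keratin 14 promoter drives Cre in basal keratinocytes and other stratified epithelia, and floxed control mice had no Cre. The treatment was 1 day of topical Aldara, a cream that contains 5% imiquimod, and other mice received none. The 4 groups were Il12rb2-deleted after Aldara (3 libraries), floxed control after Aldara (3), Il12rb2-deleted untreated (4) and floxed control untreated (3). Imiquimod activates Toll-like receptor 7 and is used in mice to produce inflammation that resembles psoriasis, and the study's title places interleukin-12 and these keratinocytes in the control of type 3 immunity. Age and sex were not stated in the labels, no vehicle cream group was analysed here, and nothing states that libraries came from separate animals. The p-values therefore reflect library-to-library spread, which may be technical.

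Total counts lay between 5830034 and 22232478 per library, and 37 to 79 of the 88 genes had a count in a library. Il12rb2 stood at 0, 1.07 and 1.64 CPM (read counts scaled to a common library size with TMM factors) in Il12rb2-deleted Aldara libraries, against 1.98, 8.14 and 2.68 CPM in floxed control Aldara libraries. In untreated skin it stood at 22.7, 8.52, 25.6 and 19.0 CPM in Il12rb2-deleted libraries, against 17.1, 78.8 and 52.7 CPM in floxed controls. Its log2 difference by genotype was -2.14 ± 0.83 after Aldara and -1.38 ± 0.69 untreated (SE), and neither passed the test (adjusted p = 0.982 and 1.00, edgeR). It fell after Aldara in both genotypes, with log2 changes of -4.33 ± 0.86 in Il12rb2-deleted cells and -3.56 ± 0.83 in floxed controls (adjusted p = 0.00391 and 0.0192). Its partner Il12rb1 had 48 to 117 counts in Il12rb2-deleted Aldara, 0 to 121 in floxed control Aldara, 0 to 15 in Il12rb2-deleted untreated and 0 to 4 in floxed control untreated libraries. Which exons were floxed was not stated, so this gene count is no full check of the deletion. The Il12rb2-deleted Aldara replicate 1 library lay furthest out on the first principal component, which carried 27.3% of the variance. It had the lowest median rank correlation with the other libraries, at 0.847. The transcript Gm10800 took 5.21% and 10.3% of counts in Il12rb2-deleted untreated replicates 1 and 2 and 14.2% in floxed control untreated replicate 2. The second principal component carried 20.2% of the variance and spread the untreated libraries. Il12rb2-deleted untreated replicates 1 to 4 lay at 32.5, 78.4, -113 and -109 on it, with 21410, 21097, 14320 and 14620 genes counted. Floxed control untreated replicates 1 to 3 lay at 16.1, 107 and -52.1, with 18595, 22430 and 15896 genes counted.

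Krt14, the keratin that marks basal keratinocytes, lay between 6422 and 32629 CPM over all libraries, and markers of cell layers and of other cells moved with Aldara. Krt14 itself lay at 7346 to 12538 CPM in Il12rb2-deleted Aldara libraries, against 20521 to 32629 CPM in Il12rb2-deleted untreated libraries. In floxed controls it lay at 6422 to 12647 CPM after Aldara, against 11523 to 21471 CPM untreated, with some overlap. Of 9 suprabasal markers, 4 fell and 1 rose after Aldara in Il12rb2-deleted cells and 4 fell in floxed controls. Their summed level was 179 to 781 CPM in Il12rb2-deleted Aldara libraries, against 2603 to 5566 CPM in Il12rb2-deleted untreated libraries. It was 271 to 496 CPM in floxed control Aldara libraries, against 2311 to 4434 CPM in floxed control untreated libraries. Of 7 basal markers, 5 fell in Il12rb2-deleted cells and 3 in floxed controls, with sums of 12757 to 21146 CPM in Il12rb2-deleted Aldara libraries, against 39645 to 67480 CPM in Il12rb2-deleted untreated libraries, and 12661 to 20502 CPM in floxed control Aldara libraries, against 25370 to 45154 CPM in floxed control untreated libraries. Of 9 fibroblast markers, 8 fell in Il12rb2-deleted cells and 3 in floxed controls, with sums of 65.2 to 248 CPM in Il12rb2-deleted Aldara libraries, against 1030.5 to 2413 CPM in Il12rb2-deleted untreated libraries, and 149 to 408 CPM in floxed control Aldara libraries, against 1059 to 1241 CPM in floxed control untreated libraries. Of 8 sebaceous markers, 6 rose in each genotype, with sums of 4562 to 5566 CPM in Il12rb2-deleted Aldara libraries, against 479 to 2219 CPM in Il12rb2-deleted untreated libraries, and 4605 to 8424 CPM in floxed control Aldara libraries, against 1059.8 to 2461 CPM in floxed control untreated libraries. Of 5 tested neutrophil and mast cell markers, S100a8 and S100a9 rose in Il12rb2-deleted cells and S100a8 in floxed controls, and both genes are also known from inflamed keratinocytes. The sums of that list were 77.7 to 191 CPM in Il12rb2-deleted Aldara libraries, against 9.33 to 26.5 CPM in Il12rb2-deleted untreated libraries, and 32.7 to 55.7 CPM in floxed control Aldara libraries, against 5.32 to 25.0 CPM in floxed control untreated libraries, without overlap in either genotype. Of 6 tested T cell markers, Thy1 fell in Il12rb2-deleted cells and Trbc2 in floxed controls. Their sums were 9.71 to 15.4 CPM in Il12rb2-deleted Aldara libraries, against 33.9 to 49.4 CPM in Il12rb2-deleted untreated libraries, and 9.20 to 14.2 CPM in floxed control Aldara libraries, against 19.3 to 42.3 CPM in floxed control untreated libraries, again without overlap. The lists for hair follicle, endothelial and mural cells, Langerhans cells and macrophages, and melanocytes held at most 1 called gene in either genotype. Hair follicle sums were high in all groups, much of them from Krt79 and Krt17. They were 3267 to 5164 CPM in Il12rb2-deleted Aldara and 2718 to 5149 CPM in Il12rb2-deleted untreated libraries. In floxed controls they were 3698 to 5967 CPM after Aldara and 2459 to 5745 CPM untreated. No marker of any list was at 0 in all libraries. In bulk samples, fewer cells of a type and less RNA per cell cannot be told apart, and the part of these markers in the results below was not tested.

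After 1 day of Aldara more of these genes were called lower than higher, and most did not pass in any comparison. In Il12rb2-deleted keratinocytes 12 of the 45 tested genes were called at an adjusted p under 0.05 by edgeR's quasi-likelihood test, against 15.5% of all genes tested. Klk6 and Serpina3n rose (2 of 45, against 7.81% of all genes), and 10 fell (against 7.69%): Klk11, Spink5, Serpina3i, Serpinb1a, Serpinb2, Serpinb5, Serpinb6a, Serpinb7, Serpinb8 and Serpinb10. In floxed controls only Serpinb8 was called, and it fell (1 of 45, against 7.05% of all genes in either direction, 4.15% higher and 2.9% lower). Averaged over both genotypes, 18 of 45 were called (against 24.9%), of which 5 rose (against 13%) and 13 fell (against 11.9%). This average uses the same libraries as the separate comparisons and is no independent support for them. The median log2 change over the 45 genes was -0.57 in Il12rb2-deleted cells and -0.74 in floxed controls, against -0.09 and -0.13 over all genes tested. Libraries did not overlap for 3 genes above and 13 below in Il12rb2-deleted cells, against 14.2% and 14.8% of all genes. The floxed controls also had 3 above and 13 below, against 13.1% and 14.7% of all genes. All 6 Aldara libraries lay above all 7 untreated libraries for 0 genes and below them for 8, against 6.29% and 5.48% of all genes.

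Of the 45 genes, 35 had a change of the same sign in both genotypes, a share of 77.8%, against 75.2% of all genes tested. The count of 12 called in Il12rb2-deleted cells was 8 without Il12rb2-deleted Aldara replicate 1. The count of 1 called in floxed controls rests on single libraries: it was 0 without floxed control Aldara replicate 1 or 3 or without floxed control untreated replicate 2 or 3. It was 5 without Il12rb2-deleted Aldara replicate 1, 2 without Il12rb2-deleted untreated replicate 1, and 3 without Il12rb2-deleted untreated replicate 2 or floxed control untreated replicate 1.

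**Figure D1:**
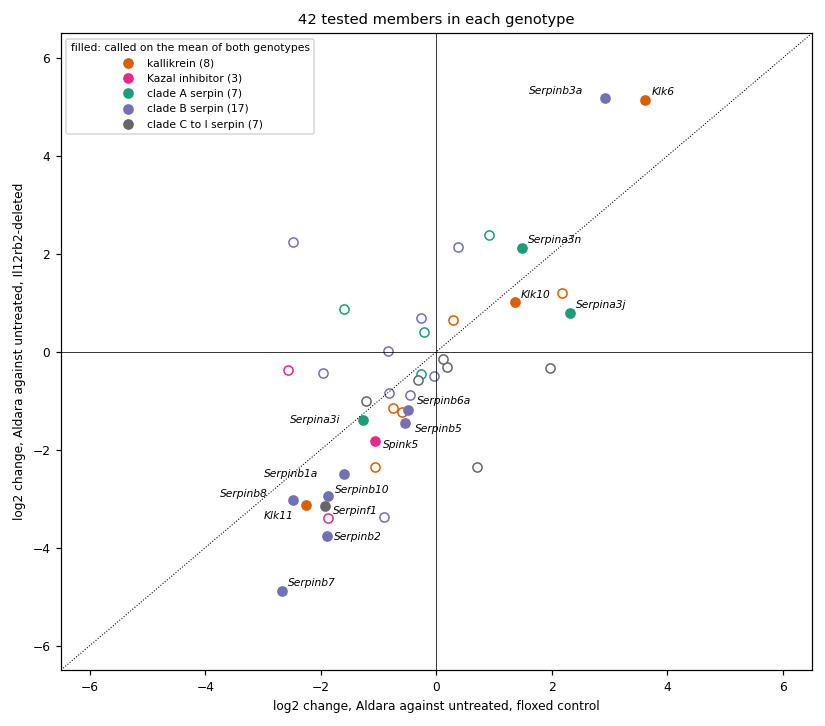
Each point is 1 of 42 tested genes, with its log2 change after Aldara in floxed controls on the horizontal axis and in Il12rb2-deleted cells on the vertical axis. Filled points are the 16 of these called on the average of both genotypes. 3 genes with no count in floxed control Aldara libraries are left out. Serpinb7, Serpinb2 and Klk11 lie far below 0 on both axes, and Klk6 and Serpinb3a lie above 0 on both.

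The kallikreins did not move as a block: of 8 tested, Klk6 and Klk10 rose and Klk11 fell on the average of both genotypes, and the other 5 did not pass. All 8 lie in 1 row of genes on the plus strand of chromosome 7 (GENCODE M21, build GRCm38), within the stretch between Klk14, which starts at 43690418, and Klk1. Per kilobase of exon, the highest mean over the 4 groups was that of Klk7 at 38.1 CPM per kb, followed by Klk11 at 31.3, Klk10 at 15.4 and Klk6 at 9.27 CPM per kb. The Klk7 mean rests largely on floxed control Aldara replicate 3, at 448 CPM, with 105 CPM or less in every other library. In Il12rb2-deleted untreated libraries Klk11 lay at 47.5 to 126 CPM and Klk7 at 11.1 to 42.9 CPM. In floxed control untreated libraries Klk11 lay at 35.7, 69.5 and 89.8 CPM, and Klk7 at 79.8, 12.2 and 17.9 CPM.

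Klk6 (chr7:43824499-43832030) encodes a trypsin-like kallikrein of skin and brain. It stood at 3.58, 40.4 and 34.8 CPM in Il12rb2-deleted Aldara libraries, against 0, 1.98, 0 and 1.28 CPM in Il12rb2-deleted untreated libraries. Floxed controls had 4.47, 9.41 and 66.7 CPM after Aldara, against 3.98, 0.320 and 2.16 CPM untreated. Every Aldara library lay above every untreated library of its genotype, with a low replicate 1 in both Aldara groups. Its log2 change was 5.15 ± 1.32 in Il12rb2-deleted cells (SE, adjusted p = 0.0159, edgeR), 3.62 ± 1.33 in floxed controls (adjusted p = 0.118, not called) and 4.38 ± 0.95 on the average (adjusted p = 0.00344). The call in Il12rb2-deleted cells was lost with limma voom (adjusted p = 0.0989) and without the 3 libraries high in Gm10800 (adjusted p = 0.0604). The floxed control change passed under 1 of 21 alternatives, with no filter (adjusted p = 0.0425).

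Klk11 (chr7:43774604-43779263), another trypsin-like kallikrein, moved the other way. It stood at 0.102, 17.2 and 14.6 CPM in Il12rb2-deleted Aldara libraries, against 84.2, 47.5, 126 and 119.8 CPM in Il12rb2-deleted untreated libraries. The values in floxed controls were 6.83, 19.2 and 15.0 CPM after Aldara, against 35.7, 69.5 and 89.8 CPM untreated. All 6 Aldara libraries lay below all 7 untreated libraries. On the log2 scale the change was -3.14 ± 0.82 in Il12rb2-deleted cells (adjusted p = 0.0172), -2.26 ± 0.81 in floxed controls (adjusted p = 0.109, not called) and -2.70 ± 0.57 on the average (adjusted p = 0.00295). The call in Il12rb2-deleted cells was kept under all 21 alternatives, among them the removal of each library in turn. The floxed control change passed under 5 of 21. These were leaving out Il12rb2-deleted Aldara replicate 1 (adjusted p = 0.00694) or both it and floxed control untreated replicate 1 (0.00368), limma voom (0.0316), the compared groups alone (0.0239) and no filter (0.0494).

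Klk10 (chr7:43781035-43785410), a kallikrein of epithelia, stood at 58.7, 13.2 and 25.8 CPM in Il12rb2-deleted Aldara libraries, against 11.3, 10.9, 9.88 and 32.3 CPM in Il12rb2-deleted untreated libraries. It stood at 16.2, 14.9 and 46.8 CPM in floxed control Aldara libraries, against 10.5, 7.04 and 12.9 CPM in floxed control untreated libraries. The groups overlapped in Il12rb2-deleted cells, where untreated replicate 4 was high, and did not overlap in floxed controls. Klk10 passed only on the average, narrowly, with a log2 change of 1.18 ± 0.42 (adjusted p = 0.0493). Leaving out any of 9 libraries lost that call, with adjusted p between 0.061 and 0.172. These were Il12rb2-deleted Aldara replicates 1 and 3, floxed control Aldara replicate 3, Il12rb2-deleted untreated replicates 1, 2 and 3, and floxed control untreated replicates 1, 2 and 3. The call was also lost with DESeq2 size factors (0.0529), limma voom (0.107) and on removal of the Gm10800-rich libraries (0.255), all as adjusted p.

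Klk7 (chr7:43811294-43816359), the chymotrypsin-like enzyme of shedding, varied widely between libraries. It stood at 0.716, 76.6 and 105 CPM in Il12rb2-deleted Aldara libraries, against 11.1, 16.4, 42.9 and 35.0 CPM in Il12rb2-deleted untreated libraries. It stood at 13.1, 35.1 and 448 CPM in floxed control Aldara libraries, against 79.8, 12.2 and 17.9 CPM in floxed control untreated libraries. The groups overlapped in both genotypes, with the highest and the lowest of the 13 values both after Aldara. The log2 change was 1.2 ± 1.13 in Il12rb2-deleted cells and 2.18 ± 1.26 in floxed controls, and neither passed (adjusted p = 0.553 and 0.356). In floxed controls its sign turned, to -0.61, without Aldara replicate 3. The average of 1.69 ± 0.84 did not pass either (adjusted p = 0.168), was 0.29 without floxed control Aldara replicate 3, and passed at 2.62 (adjusted p = 0.0197) without both Il12rb2-deleted Aldara replicate 1 and floxed control untreated replicate 1. Those libraries hold its lowest Aldara value, 0.716 CPM, and its highest untreated value, 79.8 CPM, so their removal by itself favours a rise.

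Klk8 (chr7:43797577-43803826), also known as neuropsin, stood at 0, 3.21 and 5.33 CPM in Il12rb2-deleted Aldara libraries, against 9.86, 10.3, 22.3 and 16.2 CPM in Il12rb2-deleted untreated libraries. It stood at 3.96, 4.65 and 5.11 CPM in floxed control Aldara libraries, against 5.75, 10.6 and 12.2 CPM in floxed control untreated libraries. All Aldara libraries lay below all untreated libraries, but the log2 change of -2.35 ± 0.88 in Il12rb2-deleted cells did not pass (adjusted p = 0.0839), nor did that of -1.70 ± 0.61 on the average (adjusted p = 0.0551). The average passed without Il12rb2-deleted Aldara replicate 1 (adjusted p = 0.0119) or replicate 3 (adjusted p = 0.0371), and both comparisons passed with DESeq2 (adjusted p = 0.00848 in Il12rb2-deleted cells and 0.00642 on the average) and with limma voom (0.0362 and 0.0148). Its exons share 382 bases with a gene on the other strand that is not among the counted genes. The libraries do not mark strand, so in these bases reads of that gene cannot be told apart from those of Klk8.

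Klk5, the trypsin-like enzyme that activates the Klk7 precursor, stood at 0, 5.07 and 8.55 CPM in Il12rb2-deleted Aldara libraries, against 6.94, 6.93, 16.3 and 10.2 CPM in Il12rb2-deleted untreated libraries. It stood at 2.81, 6.97 and 11 CPM in floxed control Aldara libraries, against 20.1, 7.89 and 6.81 CPM in floxed control untreated libraries. The groups overlapped in both genotypes and Klk5 was not called. Klk9 and Klk13 stayed at or below 7.69 and 2.13 CPM in all libraries and were not called. Klk1, Klk4, Klk12, Klk14 and Klk15 had too few counts to be tested, with at most 24 counts in a library, in Klk14.

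**Figure D2:**
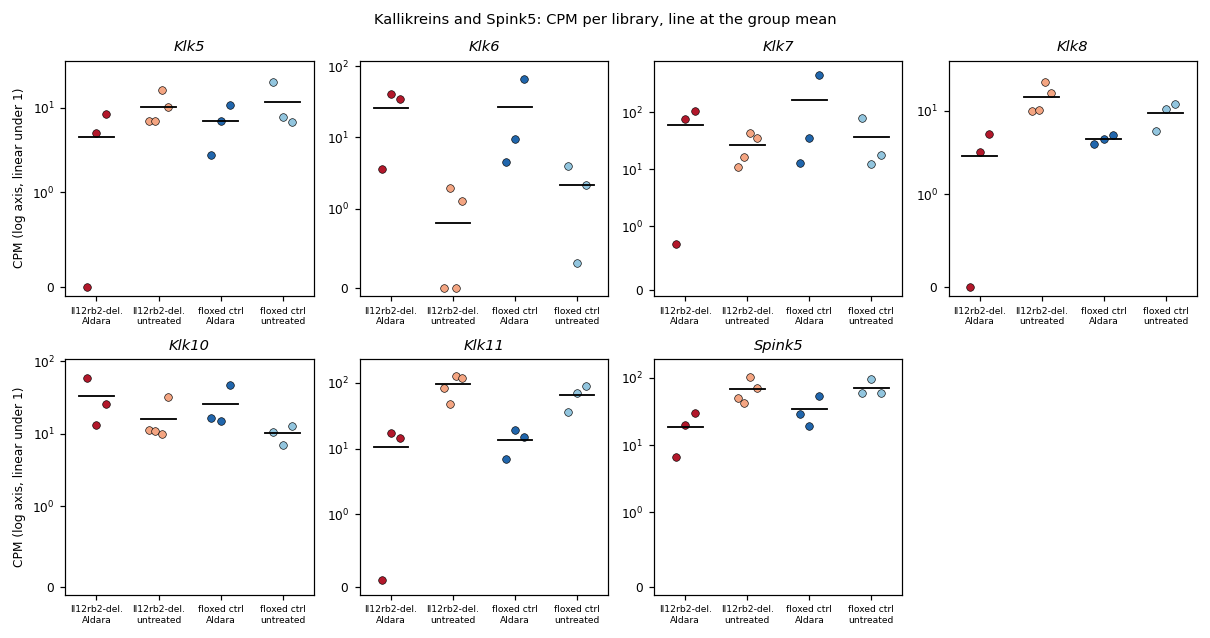
CPM per library (log axis, linear under 1) of 6 kallikreins and Spink5 in the 4 groups, with a line at the group mean. Klk6 is higher after Aldara in both genotypes, Klk11 is lower with no overlap, and Klk7 spreads from 0.716 to 448 CPM within the Aldara libraries.

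Spink5 (chromosome 18), whose product restrains Klk5, Klk7 and Klk14 in human epidermis, was the only one of 3 tested Kazal inhibitors to be called, and it fell. It stood at 6.65, 20.3 and 29.8 CPM in Il12rb2-deleted Aldara libraries, against 50.2, 42.6, 105 and 71.9 CPM in Il12rb2-deleted untreated libraries. Levels in floxed controls were 29.5, 19.4 and 53.5 CPM after Aldara, against 59.0, 95.2 and 60.5 CPM untreated. Aldara libraries lay below untreated libraries in each genotype, although floxed control Aldara replicate 3 lay above some untreated Il12rb2-deleted libraries. Its log2 change was -1.83 ± 0.48 in Il12rb2-deleted cells (adjusted p = 0.0175), -1.06 ± 0.49 in floxed controls (adjusted p = 0.221, not called) and -1.45 ± 0.34 on the average (adjusted p = 0.0057). The call in Il12rb2-deleted cells was lost without Il12rb2-deleted Aldara replicate 1 (adjusted p = 0.0531) or replicate 2 (adjusted p = 0.0532). That on the average was kept under all 20 alternatives run for it.

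Spink2, known as an inhibitor in testis, stayed at or below 3.14 CPM, and Spink10 at or below 5.22 CPM, in all libraries. Neither was called. Spink7 had no count in any library, and Spink1, Spink4, Spink6, Spink8, Spink11, Spink12, Spink13 and Spink14 had too few counts to be tested.

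Clade B serpins made up most of the genes that fell. Of 18 tested, 7 fell and none rose in Il12rb2-deleted cells (against 7.69% of all genes lower and 7.81% higher), and 1 fell in floxed controls (against 2.9% lower). On the average 7 fell and Serpinb3a rose (against 11.9% lower and 13% higher). With 1 of 18, the floxed control count is close to its background. Their median log2 change was -0.86 in Il12rb2-deleted cells and -0.87 in floxed controls. Summed over the family, they reached 757 ± 183 CPM in Il12rb2-deleted Aldara libraries (SD, n = 3), against 4853 ± 2293 CPM in Il12rb2-deleted untreated libraries (n = 4). In floxed controls the sum was 758 ± 218 CPM after Aldara, against 1736 ± 818 CPM untreated (n = 3 each). Much of the untreated sum was Serpinb2, at 3304 ± 1904 CPM in Il12rb2-deleted and 731 ± 514 CPM in floxed control untreated libraries.

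Of the 8 clade B serpins called on the average, 6 sit in 1 cluster on chromosome 1, where the order is Serpinb5, Serpinb12, Serpinb13, Serpinb3a, Serpinb3d, Serpinb3b, Serpinb3c, Serpinb11, Serpinb7, Serpinb2, Serpinb10 and Serpinb8. The last 4 of this order, which are neighbours on the plus strand, all fell in Il12rb2-deleted cells, and Serpinb3a in the same cluster rose on the average. The promoters below were picked from this cluster alone, after the calls were known. Genes called lower elsewhere, such as Klk11 and Spink5, are left out. The promoters of the 5 genes that fell and of Serpinb3a are shown for comparison, as RefSeq gives them on GRCm38.p6, from 250 bases before the transcription start to 50 after. They lie at chr1:107422439-107422738 (Serpinb7), chr1:107511173-107511472 (Serpinb2, the first of 2 starts), chr1:107528753-107529052 (Serpinb10), chr1:107589756-107590055 (Serpinb8), chr1:106860925-106861224 (Serpinb5), all on the plus strand, and chr1:107052254-107052553 (Serpinb3a) on the minus strand. The RefSeq start of Serpinb7 lies inside the longer gene that GENCODE annotates. Capitals mark every match, on either strand, to 5 motifs: TGANTCA (AP-1), TATAAA (core promoter box), TTCNNNGAA (STAT), an NF-kB motif and an interferon response motif.
Serpinb7: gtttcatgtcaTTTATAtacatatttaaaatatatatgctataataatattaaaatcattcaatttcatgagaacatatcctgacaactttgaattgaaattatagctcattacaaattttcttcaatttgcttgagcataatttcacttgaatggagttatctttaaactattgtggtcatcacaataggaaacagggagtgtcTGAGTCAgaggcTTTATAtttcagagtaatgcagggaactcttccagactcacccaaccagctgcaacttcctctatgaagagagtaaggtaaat
Serpinb2: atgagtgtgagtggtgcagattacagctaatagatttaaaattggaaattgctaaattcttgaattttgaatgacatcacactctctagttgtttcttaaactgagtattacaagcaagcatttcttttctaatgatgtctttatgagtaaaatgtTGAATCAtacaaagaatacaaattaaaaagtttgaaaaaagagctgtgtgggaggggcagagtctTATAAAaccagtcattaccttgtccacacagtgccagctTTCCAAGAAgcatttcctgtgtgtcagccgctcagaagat
Serpinb10: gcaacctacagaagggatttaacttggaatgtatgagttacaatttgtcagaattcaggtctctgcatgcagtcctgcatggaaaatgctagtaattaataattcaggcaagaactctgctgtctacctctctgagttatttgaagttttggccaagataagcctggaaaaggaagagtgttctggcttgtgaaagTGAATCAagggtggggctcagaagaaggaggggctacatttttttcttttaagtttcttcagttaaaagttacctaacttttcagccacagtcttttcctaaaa
Serpinb8: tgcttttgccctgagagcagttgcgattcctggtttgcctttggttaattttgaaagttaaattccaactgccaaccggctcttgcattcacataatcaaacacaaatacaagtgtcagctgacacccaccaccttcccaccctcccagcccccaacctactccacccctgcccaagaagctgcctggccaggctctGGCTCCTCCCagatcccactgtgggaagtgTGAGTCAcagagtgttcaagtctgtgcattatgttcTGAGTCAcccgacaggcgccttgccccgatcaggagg
Serpinb5: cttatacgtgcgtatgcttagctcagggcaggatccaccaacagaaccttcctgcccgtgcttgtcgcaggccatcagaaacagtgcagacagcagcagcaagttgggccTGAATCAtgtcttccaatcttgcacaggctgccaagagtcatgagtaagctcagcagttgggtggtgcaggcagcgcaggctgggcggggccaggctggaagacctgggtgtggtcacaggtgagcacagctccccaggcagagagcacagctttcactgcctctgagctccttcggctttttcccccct
Serpinb3a: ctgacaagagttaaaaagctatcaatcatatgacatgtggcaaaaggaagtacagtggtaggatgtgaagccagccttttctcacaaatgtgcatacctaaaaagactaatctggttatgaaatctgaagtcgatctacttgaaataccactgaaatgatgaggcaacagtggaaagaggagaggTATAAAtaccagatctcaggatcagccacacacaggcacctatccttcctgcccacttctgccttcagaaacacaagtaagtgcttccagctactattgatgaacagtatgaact

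The letters TGANTCA begin 45 bases before the start in Serpinb7, 94 before it in Serpinb2, 54 before it in Serpinb10 and 140 before it in Serpinb5. In Serpinb8 they begin 23 bases before and 13 bases after the start, and the Serpinb3a window holds none. The same letters stand in 7.808% of the 32851 promoters of the table. Within the cluster 7 of 11 genes with an entry had a match in at least 1 window: Serpinb2, Serpinb5, Serpinb7, Serpinb8, Serpinb10, Serpinb11 and Serpinb12. None of the 13 kallikreins had one, Klk11 with its fall among them, and 11 of the 68 genes with an entry did. Whether the letters bear on the fall was not tested. The letters TATAAA were found in the windows of Serpinb7, Serpinb2 and Serpinb3a and in 13.62% of all promoters. Within the cluster 7 of 11 genes had TATAAA, the same count as for the AP-1 letters. It was found in 1 of the 13 kallikreins and in 16 of the 68 genes with an entry. Serpinb8 alone of the 6 held the NF-kB motif, searched as GGGA and CC with any 4 bases between (20.73% of all promoters), Serpinb2 alone held TTCNNNGAA (8.298%), and none held the interferon response motif, searched as a repeat of GAAA with any 2 bases between (3.443%). No matches overlapped in these 6 windows. A match is a run of letters and not a shown binding site, and Serpinb11 and Serpinb12, which have the AP-1 letters, were not called.

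**Figure D3:**
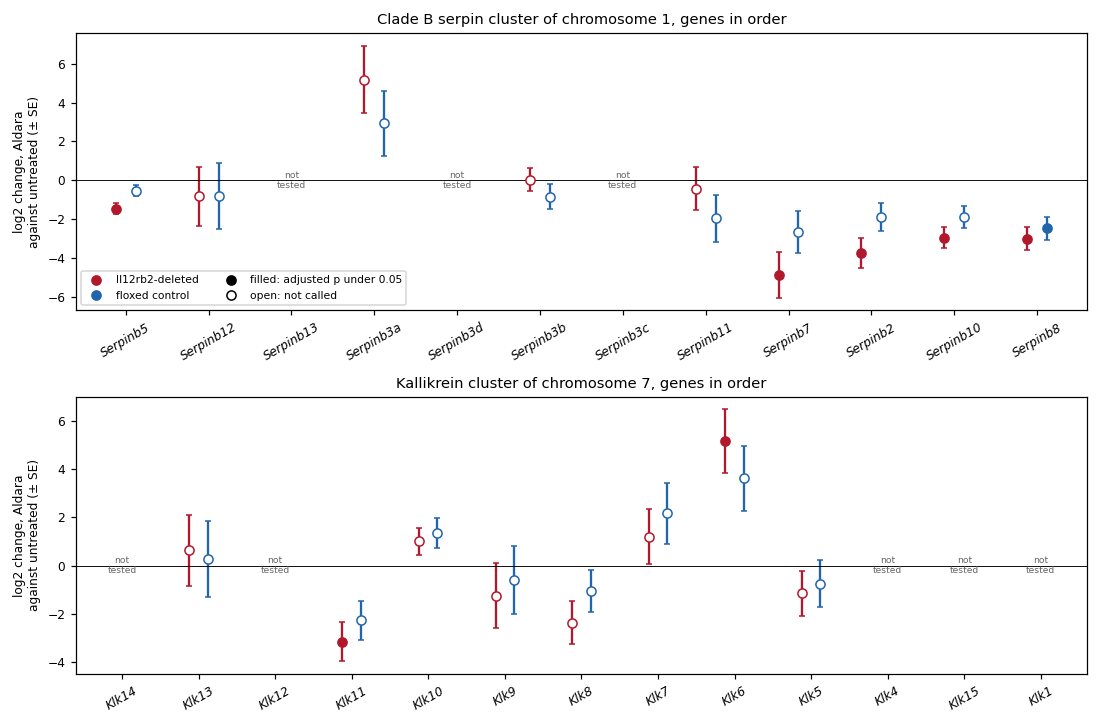
Log2 change after Aldara with its SE for the genes of the chromosome 1 clade B cluster (top) and the chromosome 7 kallikrein row (bottom), in their order along the chromosome. Filled points passed at an adjusted p under 0.05. Serpinb7, Serpinb2, Serpinb10 and Serpinb8 at the right of the top row are all below 0, while the neighbouring Klk10 and Klk11 differ in sign.

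Serpinb2 (chr1:107511423-107535478), plasminogen activator inhibitor 2, was the highest of all 88 genes per length, at 476 CPM per kb over the 4 groups, ahead of Serpinb5 at 203 CPM per kb. It stood at 111, 278 and 344 CPM in Il12rb2-deleted Aldara libraries, against 3372, 1137, 2944 and 5762 CPM in Il12rb2-deleted untreated libraries. In floxed controls it stood at 31.9, 302 and 259.9 CPM after Aldara, against 300.5, 594 and 1299.8 CPM untreated. The groups were far apart in Il12rb2-deleted cells and overlapped slightly in floxed controls, where Aldara replicate 2 lay just above untreated replicate 1. On the log2 scale the change was -3.76 ± 0.78 in Il12rb2-deleted cells (adjusted p = 0.00465), -1.89 ± 0.74 in floxed controls (adjusted p = 0.142, not called) and -2.82 ± 0.53 on the average (adjusted p = 0.00125).

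Serpinb7 (chr1:107399655-107452689), whose loss in human causes a keratosis of palms and soles, had the steepest decrease of the 7 clade B serpins called in Il12rb2-deleted cells. It stood at 0, 3.85 and 4.10 CPM in Il12rb2-deleted Aldara libraries, against 84.3, 44.0, 94.6 and 99.7 CPM in Il12rb2-deleted untreated libraries. Floxed controls had 0, 15.8 and 11.2 CPM after Aldara, against 27.5, 39.2 and 104 CPM untreated. All 6 Aldara libraries lay below all 7 untreated libraries, and replicate 1 was at 0 in both Aldara groups. The log2 change was -4.88 ± 1.17 in Il12rb2-deleted cells (adjusted p = 0.0112), -2.68 ± 1.07 in floxed controls (adjusted p = 0.152, not called) and -3.78 ± 0.79 on the average (adjusted p = 0.0026).

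Serpinb8 (chr1:107590006-107610484), an inhibitor of furin in human, where its loss causes peeling skin, was the only gene of the 88 called in both genotypes. It stood at 2.35, 32.9 and 23.3 CPM in Il12rb2-deleted Aldara libraries, against 181, 119, 154 and 183 CPM in Il12rb2-deleted untreated libraries. The values in floxed controls were 28, 32.0 and 21.9 CPM after Aldara, against 96.3, 134 and 224 CPM untreated. No Aldara library came near any untreated library. Its log2 change was -3.02 ± 0.59 in Il12rb2-deleted cells (adjusted p = 0.00329), -2.48 ± 0.59 in floxed controls (adjusted p = 0.0211) and -2.75 ± 0.41 on the average (adjusted p = 0.000266). The floxed control call was lost without floxed control Aldara replicate 1, 2 or 3 or floxed control untreated replicate 2 or 3, with adjusted p between 0.056 and 0.0893, and without the 3 libraries high in Gm10800 (0.0816).

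Serpinb10 (chr1:107529003-107549271), also known as bomapin, is annotated as a polymorphic pseudogene in GENCODE M21, and its exons share 291 bases with those of Serpinb2 on the same strand. It stood at 10.9, 10.9 and 15.5 CPM in Il12rb2-deleted Aldara libraries, against 88.4, 51.7, 123 and 122 CPM in Il12rb2-deleted untreated libraries. Levels in floxed controls were 8.17, 32.3 and 7.40 CPM after Aldara, against 31.2, 44.4 and 98.9 CPM untreated. The groups were apart in Il12rb2-deleted cells, and in floxed controls Aldara replicate 2 lay above untreated replicate 1. On the log2 scale the change was -2.96 ± 0.56 in Il12rb2-deleted cells (adjusted p = 0.00277), -1.88 ± 0.55 in floxed controls (adjusted p = 0.0516, not called) and -2.42 ± 0.39 on the average (adjusted p = 0.000411). In floxed controls it passed under 8 of 21 alternatives. It passed when any of 4 libraries was left out: Il12rb2-deleted Aldara replicate 1 (adjusted p = 0.0485), floxed control Aldara replicate 2 (0.0128), Il12rb2-deleted untreated replicate 2 (0.0472) or floxed control untreated replicate 1 (0.0329). It also passed with DESeq2 (0.00494), limma voom (0.0130) and no filter (0.0202), and without both Il12rb2-deleted Aldara replicate 1 and floxed control untreated replicate 1 (0.0304). How shared bases were assigned between Serpinb2 and Serpinb10 is not given in the sources used here.

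Serpinb5 (chr1:106861173-106883348), known as maspin, kept a high level in all groups and became the highest gene of the 88 per length in both Aldara groups, at 125 CPM per kb in Il12rb2-deleted and 141 CPM per kb in floxed control cells. It stood at 294, 382 and 356 CPM in Il12rb2-deleted Aldara libraries, against 836, 625, 1045 and 1276 CPM in Il12rb2-deleted untreated libraries. In floxed controls it stood at 329.6, 424 and 406 CPM after Aldara, against 483, 475 and 723 CPM untreated. All 6 Aldara libraries lay below all 7 untreated libraries. The log2 change was -1.46 ± 0.27 in Il12rb2-deleted cells (adjusted p = 0.00225), -0.54 ± 0.27 in floxed controls (adjusted p = 0.282, not called) and -1.0 ± 0.19 on the average (adjusted p = 0.00132).

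Outside the cluster, Serpinb6a and Serpinb1a on chromosome 13 fell. Serpinb6a, the mouse counterpart of an inhibitor of cathepsin G, stood at 98.5, 100.0 and 84.2 CPM in Il12rb2-deleted Aldara libraries, against 216, 140.0, 212 and 289.8 CPM in Il12rb2-deleted untreated libraries. Floxed controls had 101, 103 and 76.4 CPM after Aldara, against 111, 110.2 and 173 CPM untreated. Aldara libraries all lay below untreated ones, by little in floxed controls. Its log2 change was -1.19 ± 0.26 in Il12rb2-deleted cells (adjusted p = 0.00611), -0.49 ± 0.27 in floxed controls (adjusted p = 0.317, not called) and -0.84 ± 0.18 on the average (adjusted p = 0.00363). Its exons overlap those of Ripk1 and Nqo2 on the other strand.

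Serpinb1a, the mouse counterpart of an inhibitor of neutrophil elastase, stood at 0.409, 4.78 and 4.65 CPM in Il12rb2-deleted Aldara libraries, against 11.1, 10.1, 17.1 and 36.5 CPM in Il12rb2-deleted untreated libraries. The values in floxed controls were 2.17, 6.16 and 2.77 CPM after Aldara, against 9.06, 10.4 and 14 CPM untreated. All Aldara libraries lay below all untreated ones. On the log2 scale the change was -2.50 ± 0.74 in Il12rb2-deleted cells (adjusted p = 0.0316), -1.61 ± 0.74 in floxed controls (adjusted p = 0.226, not called) and -2.05 ± 0.52 on the average (adjusted p = 0.00925). The call in Il12rb2-deleted cells was lost without Il12rb2-deleted Aldara replicate 1, 2 or 3 or Il12rb2-deleted untreated replicate 3 or 4, with adjusted p between 0.0507 and 0.101. It was also lost with the compared groups alone (0.0608) and with the replicate block (0.0559), as adjusted p.

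Serpinb3a (chr1:107045587-107052303), a mouse counterpart of the human squamous cell carcinoma antigens, was the only clade B serpin to rise, and its level was low. It stood at 0.716, 6.00 and 5.27 CPM in Il12rb2-deleted Aldara libraries, against 0.257, 0.198, 0 and 0 CPM in Il12rb2-deleted untreated libraries. Levels in floxed controls were 0, 8.25 and 6.96 CPM after Aldara, against 1.10, 0.853 and 0.0451 CPM untreated. Replicates 2 and 3 of both Aldara groups lay above all untreated libraries, and replicate 1 of both did not stand clear of them. The log2 change passed on the average (4.05 ± 1.23, adjusted p = 0.0246), but neither in Il12rb2-deleted cells (5.18 ± 1.74, adjusted p = 0.0560) nor in floxed controls (2.93 ± 1.69, adjusted p = 0.353). The average was lost without Il12rb2-deleted Aldara replicate 2, floxed control Aldara replicate 2 or floxed control untreated replicate 2 or 3, with adjusted p between 0.0529 and 0.0583, with limma voom (0.107) and with the replicate block (0.142). The Il12rb2-deleted change passed under 3 of 20 alternatives: without floxed control Aldara replicate 1 (0.0263), with DESeq2 (0.00659) and with no filter (0.0312).

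**Figure D4:**
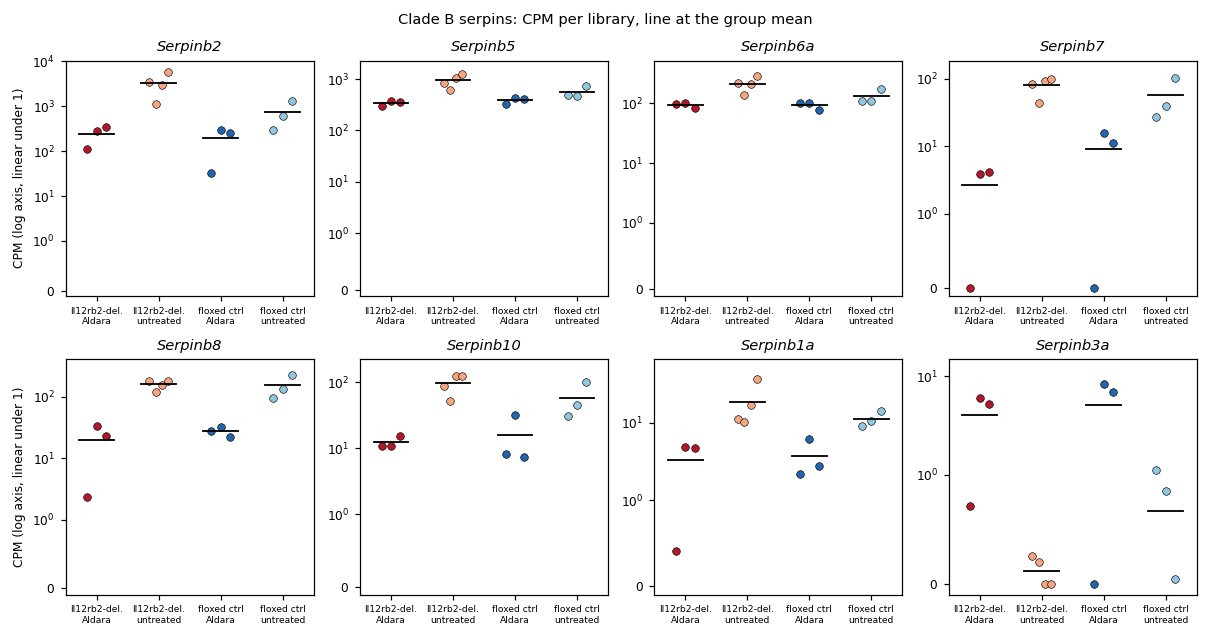
CPM per library (log axis, linear under 1) of 8 clade B serpins in the 4 groups, with a line at the group mean. In 7 of them the Aldara libraries lie low, with Serpinb2 at 111 to 344 CPM in Il12rb2-deleted Aldara libraries and 1137 to 5762 CPM in Il12rb2-deleted untreated libraries. Serpinb3a lies the other way at a low level.

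The 10 other tested clade B serpins were not called in any comparison: Serpinb1b, Serpinb1c, Serpinb3b, Serpinb6b, Serpinb6c, Serpinb6d, Serpinb6e, Serpinb9, Serpinb11 and Serpinb12. Several belong to families of closely similar copies, whose counts can depend on how reads with more than 1 match were treated, which is not given in the sources used here. The same holds for the Serpina3 genes below and for Serpinb1a, Serpinb3a and Serpinb6a above. Serpinb13, Serpinb3c, Serpinb3d, Serpinb9b, Serpinb9c, Serpinb9d, Serpinb9e, Serpinb9f, Serpinb9g and Serpinb9h had too few counts to be tested.

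Among the 9 tested clade A serpins, which are otherwise best known from liver and plasma, the Serpina3 genes of chromosome 12 split. On the average of both genotypes Serpina3n and Serpina3j rose and Serpina3i, Serpina3c and Serpina12 fell. Serpina3n, the mouse counterpart of alpha-1-antichymotrypsin and an inhibitor of granzyme B, stood at 41.5, 14.5 and 23.8 CPM in Il12rb2-deleted Aldara libraries, against 1.89, 10.5, 3.73 and 8.46 CPM in Il12rb2-deleted untreated libraries. In floxed controls it stood at 4.92, 9.18 and 26.4 CPM after Aldara, against 2.80, 3.62 and 7.98 CPM untreated. The groups were apart in Il12rb2-deleted cells and overlapped in floxed controls. The log2 change was 2.13 ± 0.67 in Il12rb2-deleted cells (adjusted p = 0.0422), 1.48 ± 0.72 in floxed controls (adjusted p = 0.256, not called) and 1.8 ± 0.49 on the average (adjusted p = 0.0142). The call in Il12rb2-deleted cells was lost on leaving out any of 7 libraries (adjusted p between 0.0515 and 0.171), namely Il12rb2-deleted Aldara replicates 1 and 3, floxed control Aldara replicate 2, Il12rb2-deleted untreated replicates 1, 3 and 4, and floxed control untreated replicate 2. It was also lost with the replicate block (adjusted p = 0.0643) and without the 3 libraries high in Gm10800 (0.136). The call on the average was lost without floxed control Aldara replicate 3 (adjusted p = 0.0520) and without the 3 libraries high in Gm10800 (0.0622).

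Serpina3i stood at 8.59, 10.4 and 18.6 CPM in Il12rb2-deleted Aldara libraries, against 41.6, 30.5, 31.7 and 27.3 CPM in Il12rb2-deleted untreated libraries. Floxed controls had 10.7, 14.5 and 5.45 CPM after Aldara, against 29.8, 22.5 and 21.1 CPM untreated. All 6 Aldara libraries lay below all 7 untreated ones. Its log2 change was -1.39 ± 0.38 in Il12rb2-deleted cells (adjusted p = 0.0236), -1.27 ± 0.40 in floxed controls (adjusted p = 0.0712, not called) and -1.33 ± 0.28 on the average (adjusted p = 0.00265). The call in Il12rb2-deleted cells was lost without Il12rb2-deleted Aldara replicate 1 (adjusted p = 0.0859) or 2 (0.0958) or Il12rb2-deleted untreated replicate 1 (0.0717), with the replicate block (0.0581) and without the 3 libraries high in Gm10800 (0.134). The floxed control change passed under 3 of 21 alternatives: without Il12rb2-deleted Aldara replicate 1 (0.0492), with DESeq2 (0.0177) and with limma voom (0.0279).

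Serpina3j stood at 21.6, 9.64 and 38.4 CPM in Il12rb2-deleted Aldara libraries, against 3.86, 26.3, 13.5 and 10.1 CPM in Il12rb2-deleted untreated libraries. The values in floxed controls were 17.1, 37.8 and 16.4 CPM after Aldara, against 7.66, 2.88 and 3.79 CPM untreated. The groups overlapped in Il12rb2-deleted cells and did not in floxed controls. Its log2 change of 1.55 ± 0.45 passed on the average (adjusted p = 0.0189), and neither 0.80 ± 0.60 in Il12rb2-deleted cells (adjusted p = 0.429) nor 2.31 ± 0.68 in floxed controls (adjusted p = 0.0527) did. The average was lost without Il12rb2-deleted Aldara replicate 3, floxed control Aldara replicate 2 or floxed control untreated replicate 2 or 3 (adjusted p between 0.0547 and 0.0652), and with the replicate block (0.0531). The floxed control change passed under 8 of 21 alternatives. Among these were leaving out Il12rb2-deleted Aldara replicate 1 (adjusted p = 0.0489), Il12rb2-deleted untreated replicate 1 (0.0357) or 2 (0.0406) or floxed control untreated replicate 1 (0.0483). It also passed with DESeq2 (0.00617), no filter (0.0236) and the compared groups alone (0.0385), and without both Il12rb2-deleted Aldara replicate 1 and floxed control untreated replicate 1 (0.0430).

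Serpina12, known as vaspin and an inhibitor of Klk7, was called lower on the average (adjusted p = 0.0219) from very few reads. It had 0, 0 and 1 counts in Il12rb2-deleted Aldara libraries, against 18, 1, 125 and 21 counts in Il12rb2-deleted untreated libraries. It had no count in the 3 floxed control Aldara libraries, against 0, 9 and 0 counts in floxed control untreated libraries. These 9 counts all came from floxed control untreated replicate 2, a library high in Gm10800, so no fold change is given for floxed controls. The call was lost without Il12rb2-deleted Aldara replicate 2 (adjusted p = 0.0543), Il12rb2-deleted untreated replicate 3 (0.0507) or floxed control untreated replicate 2 (1.00), with limma voom (0.112) and without the 3 libraries high in Gm10800 (1.00). Serpina3c had 0, 0 and 7 counts in Il12rb2-deleted Aldara libraries, against 11, 22, 0 and 17 counts in Il12rb2-deleted untreated libraries. It had no count in floxed control Aldara libraries, against 30, 12 and 67 counts in floxed control untreated libraries, which is at least 32.4-fold lower with a floor of 3 counts over the group. Serpina3c was called lower on the average (adjusted p = 0.0188) and was kept with each library left out, but was lost without the 3 libraries high in Gm10800 (adjusted p = 0.0730) and on removal of both Il12rb2-deleted Aldara replicate 1 and floxed control untreated replicate 1 (0.0565).

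Serpina3g, an inhibitor of lysosomal cathepsins, was the highest clade A serpin per length at 28.9 CPM per kb. It stood at 35.2, 92.7 and 80.4 CPM in Il12rb2-deleted Aldara libraries, against 43.0, 131, 22.0 and 16.0 CPM in Il12rb2-deleted untreated libraries. Levels in floxed controls were 78.4, 56.4 and 33.5 CPM after Aldara, against 86.4, 65.0 and 43.2 CPM untreated. The groups overlapped in both genotypes and it was not called. Serpina3b, between 3.31 and 31.3 CPM, Serpina3f and Serpina9 were not called either. Serpina1d had no count, and Serpina1a, Serpina1b, Serpina1c, Serpina1e, Serpina1f, Serpina3a, Serpina3k, Serpina3m, Serpina5, Serpina6, Serpina7, Serpina10, Serpina11 and Serpina16 had too few to be tested.

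Of the 7 tested serpins of clades C to I, Serpinf1 alone was called, on the average. Serpinf1, the pigment epithelium-derived factor, which is not known to inhibit a protease, stood at 0, 3.28 and 0.889 CPM in Il12rb2-deleted Aldara libraries, against 13.9, 19.6, 0.544 and 16.7 CPM in Il12rb2-deleted untreated libraries. In floxed controls it stood at 0.830, 8.25 and 4.43 CPM after Aldara, against 16.0, 12.3 and 22.8 CPM untreated. Untreated Il12rb2-deleted replicate 3 lay among the Aldara values, and the floxed control groups did not overlap. On the log2 scale the change was -3.15 ± 1.17 in Il12rb2-deleted cells (adjusted p = 0.0826), -1.93 ± 1.13 in floxed controls (adjusted p = 0.361) and -2.54 ± 0.81 on the average (adjusted p = 0.0318). The average was lost on leaving out any of 7 libraries, with adjusted p between 0.0501 and 0.0722, which were Il12rb2-deleted Aldara replicate 3, floxed control Aldara replicates 1 and 3, Il12rb2-deleted untreated replicates 1, 2 and 4, and floxed control untreated replicate 3. It was also lost with limma voom (adjusted p = 0.0612) and without the 3 libraries high in Gm10800 (0.124). The Il12rb2-deleted change passed under 3 of 21 alternatives: without Il12rb2-deleted untreated replicate 3 (adjusted p = 0.0353), with DESeq2 (0.00716) and with no filter (0.0444).

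Serpinh1, the chaperone of collagen folding, stood at 36.5, 85.7 and 64.6 CPM in Il12rb2-deleted Aldara libraries, against 85.5, 108, 38.3 and 46.1 CPM in Il12rb2-deleted untreated libraries. Floxed controls had 59.8, 57.8 and 164 CPM after Aldara, against 99.1, 64.2 and 96.8 CPM untreated. Serping1, the C1 inhibitor of complement, lay between 19.9 and 69.6 CPM in the Aldara libraries, against 38.0 and 127 CPM in the untreated ones. Both overlapped between treatments in each genotype and were not called. Serpine2, protease nexin 1, lay between 0.716 and 14 CPM after Aldara, against 9.26 and 47.6 CPM untreated, and was not called either. Serpinc1 and Serpind1 were tested and not called, and Serpine3, Serpinf2, Serpini1 and Serpini2 had too few counts.

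Between genotypes, none of the 45 genes was called by edgeR after Aldara, in untreated skin or in the interaction, which asks whether the Aldara change differed between genotypes. None of the 16051 genes was called either, a background of 0% in each of the 3. At an unadjusted p under 0.05, 1 of the 45 stood out after Aldara (against 4.3% of all genes), 5 in untreated skin (against 3.73%) and 1 in the interaction (against 3.36%). DESeq2 called 24, 22 and 2 genes in the 3 comparisons and limma voom none, with no kallikrein, serpin or Kazal inhibitor among them. An Aldara call in Il12rb2-deleted cells that was missed in floxed controls is therefore not shown to differ between the genotypes.

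Among the 5 genes in untreated skin were Serpinb2, Serpinb5, Serpinb6a and Serpina3j, all 4 with higher means in Il12rb2-deleted cells. The log2 differences were 2.18 ± 0.72 for Serpinb2, 0.76 ± 0.26 for Serpinb5, 0.71 ± 0.25 for Serpinb6a and 1.48 ± 0.64 for Serpina3j (adjusted p = 1.00 for each). These 4 overlapped between genotypes. Over the 45 genes the median log2 difference in untreated skin was 0.42, against -0.05 over all genes. Libraries did not overlap between genotypes in untreated skin for 1 gene above and 1 below, the lower one being Serpinb11, against 2.77% and 3.26% of all genes.

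After Aldara, Serpinb6d was the gene with an unadjusted p under 0.05, with 63, 20 and 49 counts in Il12rb2-deleted Aldara libraries, against no count in the 3 floxed control Aldara libraries. That is at least 55.9-fold higher with a floor of 3 counts over the group, and it did not pass (adjusted p = 0.982). In untreated skin it had 8, 64, 0 and 2 counts in Il12rb2-deleted libraries, against 14, 5 and 0 counts in floxed control libraries, and the Il12rb2-deleted untreated libraries alone thus ranged from 0 to 64 counts. Libraries did not overlap for 5 genes above, Serpina9, Serpinb12, Serpinb3b, Serpinb6c and Serpinb6d, and for none below, against 4.37% and 4.72% of all genes. In the interaction Serpinb5 had the unadjusted p under 0.05, with a log2 difference of -0.92 (adjusted p = 1.00), and that of Serpinb2 was -1.87 (adjusted p = 1.00).

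Other genes of the same system were taken from 3 lists. Among 34 other serine proteases, receptors and related genes, 25 were tested, 1 rose and 8 fell in Il12rb2-deleted cells, and 3 fell in floxed controls. The list is not confined to genes of the epidermis, and Mcpt4, for example, is also on the neutrophil and mast cell list. The part of other cells in these calls, such as the fibroblasts whose markers fell, was not tested. All genes tested gave 7.81% higher and 7.69% lower in Il12rb2-deleted cells, and 4.15% higher and 2.9% lower in floxed controls. Furin, a convertase of precursor proteins, rose by a log2 change of 1.71 in Il12rb2-deleted cells. The membrane protease Tmprss4 (-2.78), Prss23 (-3.11), Htra1 (-2.31), the plasminogen activator Plat (-1.10), the urokinase receptor Plaur (-3.93), the thrombin receptor F2r (-2.29), tissue factor F3 (-2.77) and the peptidase Dpp4 (-3.07) fell, as log2 changes in Il12rb2-deleted cells. In floxed controls Prss23 (-1.86), Htra1 (-1.61) and F2r (-1.71) fell. The list's median log2 change was -1.10 in Il12rb2-deleted cells and -1.18 in floxed controls.

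Among 34 other protease inhibitors of skin, 26 were tested, 2 rose and 3 fell in Il12rb2-deleted cells (against 7.81% and 7.69% of all genes), and 2 rose in floxed controls (against 4.15%). These counts lie near the background and are no result about the list. Slpi, an inhibitor of neutrophil elastase, stood at 186, 33.6 and 32.3 CPM in Il12rb2-deleted Aldara libraries, against 0.771, 3.56, 0 and 0.192 CPM in Il12rb2-deleted untreated libraries. In floxed controls Slpi stood at 59.4, 24.1 and 41.2 CPM after Aldara, against 5.45, 0 and 2.25 CPM untreated. No Aldara library overlapped an untreated one, and the log2 change was 6.6 ± 1.19 in Il12rb2-deleted cells (adjusted p = 0.00217) and 3.98 ± 1.14 in floxed controls (adjusted p = 0.0482). Pebp1 rose by 0.98 and 0.92 in Il12rb2-deleted cells and floxed controls on the log2 scale. Timp3, an inhibitor of metalloproteases, fell by 1.52 on the log2 scale in Il12rb2-deleted cells, where Wfdc2 and Wfdc5 were also called lower, with 2 and 3 of the 3 Aldara libraries at 0.

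Among 23 genes listed for shedding and the cornified layer, 22 were tested, 3 rose and 5 fell in Il12rb2-deleted cells (against 7.81% and 7.69% of all genes), and 3 fell in floxed controls (against 2.9%). Not all are substrates or proteases of that layer, and the matrix protein Sparcl1 is counted among those that fell in both genotypes. Dsg1a, a desmoglein that kallikreins cut, had log2 changes of -4.16 ± 0.52 in Il12rb2-deleted cells and -3.63 ± 0.52 in floxed controls (adjusted p = 0.000412 and 0.00296). Its paralog Dsg1b changed by -3.0 in Il12rb2-deleted cells and -1.92 in floxed controls, and the matrix protein Sparcl1 by -2.46 in Il12rb2-deleted cells and -3.27 in floxed controls, on the log2 scale. In Il12rb2-deleted cells the transglutaminase Tgm3 (-4.26) and cathepsin H (Ctsh, -1.13) also fell. Involucrin (Ivl, 0.95), cathepsin D (Ctsd, 1.21) and cathepsin C (Ctsc, 0.83) rose there. Dsg1a and Ivl are also on the suprabasal marker list given above.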

How the data were processed

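Bulk RNA-seq was carried out on 13 libraries of sorted interfollicular keratinocytes in 4 groups. Per the labels' protocols, libraries were made by Smart-seq2, which neither marks strand nor carries molecular identifiers, with single-end reads of 100 bases. The deposited values are raw counts per gene, which the authors had not normalized. The submitters' processing notes name the tools STAR, Subread and featureCounts and the build GRCm38, with versions, annotation release, strand setting and treatment of multiply matching reads not given in the sources used here.

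Genes with enough counts (filterByExpr, minimum count 10) were fitted in edgeR 4.0.16 (R 4.3.3) with TMM factors and 1 coefficient per group over all libraries. The quasi-likelihood F test was run for 6 comparisons, with Benjamini-Hochberg adjustment over the 16051 genes tested and calls at an adjusted p under 0.05. SE was taken as the size of the log2 change over the root of its F value. The filter removed 43 of the 88 genes, and a gene that passed through 1 group only had to differ, so counts over the 45 are descriptions. Levels are CPM, or CPM per kilobase of exon in GENCODE M21, which held all 88 genes and 25712 of 25746 identifiers. Promoters and motifs come from the RefSeq table, which matched 68 of the 88. The steps were tested on simulated counts.

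Depth of 5830034 to 22232478 counts sets a floor of 3 counts at 0.135 to 0.594 CPM per library, for counting error only. Named are all genes called in any comparison, the 4 highest of each role group and a short list of epidermal genes. Genes outside that rule, such as Klk9, Klk13, Serpinb6d, Serpinb11 and the genes whose groups did not overlap between genotypes, were named after their values were seen. The result of 1 tested member is not reported here. The members, lists, tests and alternatives were chosen with earlier results of these data known. Alternatives were DESeq2 size factors, no filter, DESeq2 1.42.0, voom of limma 3.58.1, the compared groups alone, a replicate block, each library left out, and removal of named libraries. The removed pair of Il12rb2-deleted Aldara replicate 1 and floxed control untreated replicate 1 was taken from earlier results of these data. Here floxed control untreated replicate 1 did not stand apart in rank correlation, with the highest median of all libraries, 0.929.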

Additional observations from a re-analysis of the deposited data

Results flagged for a closer look

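Klk10 was far above the rest of its group in 1 library: 32.3 CPM in Il12rb2-deleted untreated replicate 4, with 9.88 to 11.3 CPM in the other 3 libraries. Serpina12 likewise stood at 9.72 CPM in Il12rb2-deleted untreated replicate 3, with 0.198 to 1.54 CPM in the other 3. Of 29 genes examined in that group of 4 libraries, 2 were set apart in this way, and chance sets apart about 1 in 20.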

How the results depend on the processing

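The count of 12 called in Il12rb2-deleted cells ranged from 8 to 13 with each library left out, the 18 on the average from 14 to 18, and the 1 in floxed controls from 0 to 5. The floxed control count was 5 with no filter, 4 with DESeq2, 5 with limma voom and 4 with the compared groups alone. Removal of the 3 Gm10800-rich libraries gave 0, and there were 4 without both floxed control untreated replicate 1 and Il12rb2-deleted Aldara replicate 1. The counts of these genes called between genotypes and in the interaction were 0 under every alternative. Calls in Il12rb2-deleted cells of Klk11, Serpinb2, Serpinb5, Serpinb6a, Serpinb7, Serpinb8 and Serpinb10 held under all 21 alternatives. Of 1300 recomputed log2 changes, 1180 kept direction and side of the threshold, 79 dropped below it, 40 passed it, and 1 turned: Klk7 in floxed controls, at -0.61 without floxed control Aldara replicate 3, in a left-out range from -0.61 to 3.46. The 1300 include changes that were not called in the main fit and so had no call to lose. The 79 of 1300 is therefore not the share of calls that were lost. The cause of the shifts between alternatives was not tested. The compared groups alone could not be used for the average and the interaction, which need all groups. With the replicate block the counts were 9 in Il12rb2-deleted cells, 1 in floxed controls and 16 on the average. The labels share replicate numbers across groups and do not say that these pair samples. A correlation of deviations over 0.1 was found in 6 of 18 same-number pairs of libraries and in 6 of 45 other pairs. The highest values were 0.421 and 0.369, and 6 of 13 libraries lay closest to their own number. The numbers were not taken as pairs, but a pairing is not excluded. Low counts limit Serpina12, Serpina3c, Serpinb3a and Serpinb6d.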
